A study of Mus musculus with 8 samples.

Results

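The genes examined here encode factors that shorten the poly(A) tails of maternal mRNA, and their transcripts were followed through 4 groups of C57BL/6 mouse embryos. The 10 genes were taken by name: the adaptors Btg4 and Pabpn1l, the CCR4-NOT scaffold genes Cnot1, Cnot2 and Cnot3, and the deadenylases Cnot6, Cnot6l, Cnot7, Cnot8 and Pan2. All 10 were among the 24732 genes of the table, the RefSeq transcript entries of each gene being summed. RNA was measured by Smart-seq, a method that amplifies whole cDNA from little material, in 8 libraries of embryos labelled CX45, 8C, CX22 and 2C, 2 libraries a group. 8C is taken to mean 8-cell embryos and 2C to mean 2-cell embryos. The labels gave no treatment, dose or time for any group, did not say what CX45 and CX22 stand for, and named no control. The title of the series names RNA polymerase I transcription and the architecture of chromatin. Each comparison below therefore sets groups side by side by their names only.

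In growing oocytes, mRNA is stored with controlled poly(A) tails, and much of it is destroyed during meiotic maturation and after fertilisation. Removal of the tail by the CCR4-NOT complex starts that decay. Cnot1 is the scaffold on which the complex is built, Cnot2 and Cnot3 form its NOT module, and each complex carries a nuclease of the Cnot6 or Cnot6l kind and another of the Cnot7 or Cnot8 kind. Btg4, a member of the BTG/Tob family, brings the complex to translated maternal mRNA, and Pabpn1l is a poly(A)-binding partner of Btg4 in mouse oocytes and eggs. Pan2 is the catalytic subunit of a separate deadenylase, the PAN2-PAN3 complex, known for the first trimming of long tails.

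Upstream sequence was matched for 8 of the 10 genes, all but Cnot1 and Cnot7. The windows below hold the 250 bases before a start site, from RefSeq on GRCm38.p6, and are shown for Btg4 and Cnot6l, whose transcripts fell most in 8C against 2C, and for Cnot2 and Cnot8, each with a called transcript entry that has a start of its own. Capitals mark the motif CANNTG and the motif CCAAT; the motif GGGCGG and the motif TATAAA were searched too, all on both strands. The window of Btg4 is on the plus strand, that of Cnot6l on the minus strand at its most upstream start, that of Cnot2 on the minus strand at an internal start, and that of Cnot8 on the plus strand at the start of entry NM_026949.
Btg4, chr9:51115751-51116000: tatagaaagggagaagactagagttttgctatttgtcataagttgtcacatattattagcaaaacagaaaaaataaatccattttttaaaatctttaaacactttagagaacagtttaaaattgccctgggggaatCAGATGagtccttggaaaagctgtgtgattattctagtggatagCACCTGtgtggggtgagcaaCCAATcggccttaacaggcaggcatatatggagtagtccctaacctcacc
Cnot6l, chr5:96161991-96162240: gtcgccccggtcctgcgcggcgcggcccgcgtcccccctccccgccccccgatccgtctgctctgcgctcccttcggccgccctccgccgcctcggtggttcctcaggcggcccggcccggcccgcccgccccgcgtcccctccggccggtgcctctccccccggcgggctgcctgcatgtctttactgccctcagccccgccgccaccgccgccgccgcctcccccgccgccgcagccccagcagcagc
Cnot2 internal start, chr10:116527950-116528199: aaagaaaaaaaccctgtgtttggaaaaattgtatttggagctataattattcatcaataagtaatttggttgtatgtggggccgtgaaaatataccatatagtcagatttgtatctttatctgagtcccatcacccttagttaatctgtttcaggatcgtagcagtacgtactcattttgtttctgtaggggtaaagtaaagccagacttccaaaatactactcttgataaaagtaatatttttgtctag
Cnot8, chr11:58103720-58103969: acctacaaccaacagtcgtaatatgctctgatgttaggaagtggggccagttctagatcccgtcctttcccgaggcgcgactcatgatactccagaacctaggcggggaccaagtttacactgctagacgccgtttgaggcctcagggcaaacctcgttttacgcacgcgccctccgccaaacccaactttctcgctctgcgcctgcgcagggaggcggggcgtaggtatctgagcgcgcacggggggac

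The Btg4 window held 2 CANNTG motifs, the letters of an E-box, and 1 CCAAT motif, and its GC content was 38% with 1 CpG. The Cnot6l window had a GC content of 82.4% and 37 CpG, with 4 GGGCGG motifs and no CANNTG or CCAAT. The Cnot2 internal window had a GC content of 33.2% and 3 CpG and held none of the motifs. The Cnot8 window had a GC content of 59.2% and 21 CpG and held none of them either. Over 32851 such windows of mouse genes, the median GC content was 52.4% and the median number of CpG 6. CANNTG was found in 66.2% of all windows, CCAAT in 33.8%, GGGCGG in 32.7% and TATAAA, found in no window of these genes, in 12.4%. The matches in the Btg4 window do not overlap. A match of letters describes the window only.

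Levels are given in FPKM, fragments scaled to transcript length and library size. The libraries had an implied depth of 9.78 to 20.21 M fragments (M, 1e6), so that 3 fragments of a 2 kb transcript equal 0.0742 to 0.153 FPKM, a limit for counting error only. Markers of 8-cell and later embryos summed to 1036 to 1304 FPKM in CX45 and 1407 to 1755 FPKM in 8C, against 110 to 129 FPKM in CX22 and 134 to 137 FPKM in 2C, with Cdx2 listed at 0 in every library. Most of that sum was Dppa2, at 266 and 458 FPKM in CX45 and 635 and 831 FPKM in 8C, and Dppa4. Dppa4 stood at 615 and 717 FPKM in CX45 and 596 and 722 FPKM in 8C. Of the 14 markers tested, 6 rose and 1 fell in 8C against 2C, 50% called against 37% of all genes. Genes activated at the 2-cell stage summed to 820 to 1602 FPKM in CX45, 661 to 906 FPKM in 8C, 633 to 748 FPKM in CX22 and 612 to 619 FPKM in 2C, and 4 of the 16 in the table reached 1 FPKM in both 8C libraries, against 13 in both 2C libraries. Pramel7 alone held 511 and 495 FPKM of that sum in CX45, 450 and 638 FPKM in 8C, 5.99 and 31.0 FPKM in CX22, and 27.2 and 26.7 FPKM in 2C. Of the 16 genes, 7 fell and 3 rose in 8C against 2C. By the median over 53 genes, the 2 libraries of 2C differed by no more than sampling noise, and they were counted as 1 sample, although 7 genes stood above 10 FPKM in 1 of them and at 0 in the other, Omt2b at 83519 and 0 FPKM among them; no SD is given for 2C. The labels do not say that the libraries of a group came from separate collections of embryos, so p-values measure the spread between these libraries, which may be technical. In a library of whole embryos, fewer cells with a transcript and less RNA per cell cannot be told apart. Blood and immune markers summed to 322 to 380 FPKM in CX45, against 23.1 to 34.5 FPKM in 8C, 33.8 to 85.2 FPKM in CX22 and 110 to 111 FPKM in 2C. Most of that sum in CX45 was Hba-a1, a globin, at 286 and 347 FPKM, with 6 of the 10 markers above 0 in both libraries and 2 at 0 in both. Cumulus markers summed to at most 40.5 FPKM and sperm markers to at most 42.9 FPKM in any library. The part of these markers in the results was not tested.

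At the 8-cell stage, transcripts of the adaptor Btg4 and of the deadenylases Cnot6, Cnot6l, Cnot7 and Pan2 fell relative to the 2-cell stage, and the scaffold transcript Cnot1 rose. Of the 9 genes tested, 5 fell and 1 rose. Over all 11832 genes tested, 37% were called in this comparison, 20.7% lower and 16.4% higher. A gene was called at a limma adjusted p under 0.05 (Benjamini-Hochberg over all genes tested) and a log2 fold change of at least 1 in size, on the log2(FPKM + 1) scale, which understates changes of low genes. The median log2 fold change was -2.07 over the 9 genes and -0.03 over all genes. With either 8C library left out, which leaves 8C with 1 library assumed to vary like the other groups, only Cnot6l of the 9 was called. Over all genes, 4382 were called with every library, and 1487 and 1411 without the first and the second 8C library.

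Every CX45 and 8C library stood below every CX22 and 2C library for Btg4, Cnot6, Cnot6l, Cnot7 and Pan2, and above for Cnot1. The share of all genes so placed was not counted. By means, CX45 was 5.05 times 8C for Btg4, 2.51 for Cnot6, 2.12 for Cnot6l, 1.85 for Pan2 and 0.628 for Cnot8. It was 0.857 to 1.07 times 8C for Cnot1, Cnot2 and Cnot7. The CX22 mean was 0.788 to 1.42 times that of 2C for all but the low genes Pabpn1l and Cnot3. In CX45 against CX22, 4 of the 9 tested genes fell, Btg4, Cnot6l, Cnot7 and Pan2, and 0 rose. Over all genes tested, 36.6% were called in that comparison, 13.5% lower and 23.1% higher. Without any 1 8C or CX45 library that share was 20.6% to 21.5%, and 63.1% of the called genes were higher, against 49.2% under quantile normalization. In CX45 against 2C, 3 fell, Btg4, Cnot6l and Cnot7, and 0 rose, where 29.8% of all genes were called, 13.6% lower and 16.3% higher. That share was 12.6% to 17.5% without any 1 8C or CX45 library, and 54.5% of the called genes were higher, against 45.2% under quantile normalization and 44.4% under median-ratio scaling. The medians over the 9 genes were -1.45 in CX45 against CX22 and -1.09 in CX45 against 2C, and those over all genes 0.47 and 0.33. These comparisons share the CX45 libraries, and those against 2C share the 2C libraries.

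**Figure D1:**
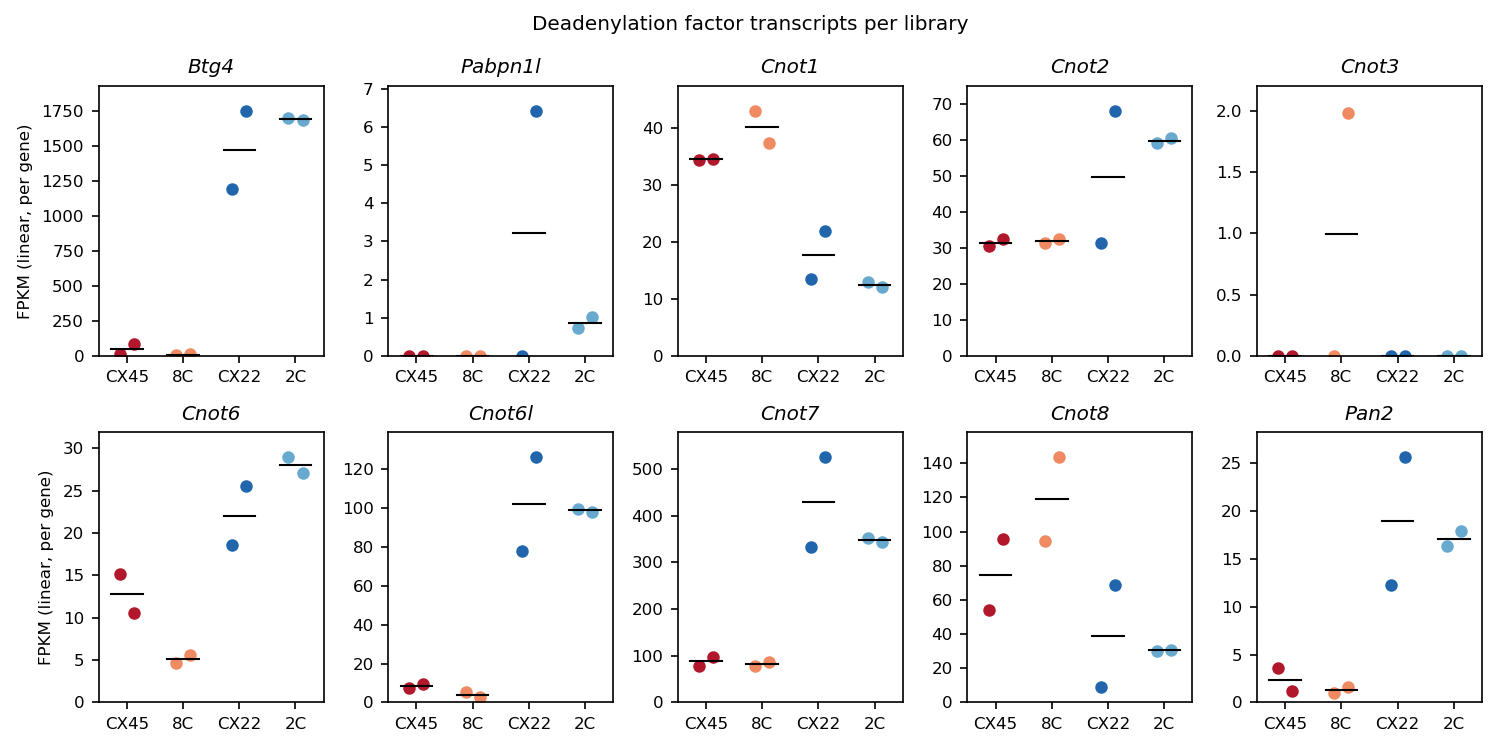
FPKM of each of the 10 genes (linear y axes, each from 0) in the CX45, 8C, CX22 and 2C libraries; points are libraries and bars are means of the pair. Btg4, Cnot6l, Cnot7 and Pan2 are low in CX45 and 8C and high in CX22 and 2C, and Cnot1 shows the opposite order.

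Btg4 (chromosome 9, 50924106 to 50928028 on mm9, as for all coordinates of genes below) was the most abundant of the transcripts per length in CX22 and 2C embryos. It stood at 12.8 and 83.2 FPKM in CX45, 5.07 and 13.9 FPKM in 8C, 1189 and 1752 FPKM in CX22, and 1698 and 1683 FPKM in 2C. The CX45 and 8C libraries were all below every CX22 and 2C library, while the CX45 pair overlapped the 8C pair and the CX22 pair overlapped the 2C pair. The mean level in 8C, 9.51 ± 6.28 FPKM (SD, n = 2), was 178-fold below that of 2C, a log2 fold change of -7.47 (SE 1.20, limma adjusted p = 0.0117). In CX45 the mean was 48.0 ± 49.8 FPKM (SD, n = 2), 30.6-fold below the 1471 ± 399 FPKM (SD, n = 2) of CX22, with a log2 fold change of -5.40 (SE 0.98, limma adjusted p = 0.0160). Against 2C the log2 fold change in CX45 was -5.63 (SE 1.20, limma adjusted p = 0.0296), a call lost without any 1 8C or CX22 library, without CX45 replicate 1 and with no filter on low values. The call in CX45 against CX22 was lost without either CX22 library. The second CX45 library, the higher in Btg4, was also the higher in Tcstv1 and Zfp352, genes activated at the 2-cell stage. Tcstv1 stood at 18.3 and 289 FPKM and Zfp352 at 20.9 and 179 FPKM in the CX45 libraries. The maternal transcript Zbed3, picked below for its likeness to Btg4, had 14.1 and 100.3 FPKM. Other genes of these lists were lower in the second library, among them Zscan4f at 2.73 and 1.68 FPKM and Zp3 at 54.3 and 29.5 FPKM. The part of these genes in the Btg4 values was not tested. The difference of CX45 from 8C was not called, at a log2 fold change of 1.84 (SE 0.98, limma adjusted p = 0.406). Of the summed FPKM of the 10 genes, Btg4 made up 5.43% and 22.8% in CX45 embryos, 1.93% and 4.27% in 8C embryos, 70.5% and 66.9% in CX22 embryos, and 73.8% and 74.0% in 2C embryos.

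Pabpn1l (chromosome 8, 125143371 to 125146635) was barely represented. It was listed at 0 in both CX45 and both 8C libraries, at 0 and 6.43 FPKM in CX22, and at 0.727 and 1.02 FPKM in 2C. It passed the filter of 1 FPKM in 2 libraries only through 1 CX22 and 1 2C library, and no difference between groups was called. Its paralog Pabpn1, the nuclear poly(A)-binding protein, is described with the poly(A) factors.

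Among the scaffold genes, Cnot1 (chromosome 8, 98243351 to 98331362) ran opposite to Btg4. It had 34.4 and 34.6 FPKM in CX45, 43.1 and 37.4 FPKM in 8C, 13.5 and 22.0 FPKM in CX22, and 13.0 and 12.0 FPKM in 2C. Every CX45 and 8C library stood above every CX22 and 2C library. Cnot1 rose in 8C to 3.21 times the mean of 2C, a log2 fold change of 1.61 (SE 0.38, limma adjusted p = 0.0316). That call was lost without either CX45 library, and with the highest entry of each gene in place of the sum. In CX45 the log2 fold changes were 0.96 against CX22 (SE 0.31, limma adjusted p = 0.0694) and 1.39 against 2C (SE 0.38, limma adjusted p = 0.0522), neither called.

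Cnot2 (chromosome 10, 115922216 to 116018567) had 30.5 and 32.4 FPKM in CX45, 31.4 and 32.5 FPKM in 8C, 31.4 and 68.2 FPKM in CX22, and 59.1 and 60.5 FPKM in 2C. The CX45 and 8C libraries lay within 3 FPKM of each other and below both 2C libraries, and the CX22 libraries spanned the range. The log2 fold change in 8C against 2C was -0.88 (SE 0.50, limma adjusted p = 0.221), not called. Cnot3 (chromosome 7, 3596871 to 3612711), the other NOT-module gene, stood at 1.98 FPKM in 1 of the 8C libraries, with 0 in the other 7 libraries, and was the 1 gene not tested.

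The nucleases of the Cnot6 kind both fell in 8C against 2C. Cnot6l (chromosome 5, 96499352 to 96591009) had 7.25 and 9.62 FPKM in CX45, 5.12 and 2.83 FPKM in 8C, 78.0 and 126 FPKM in CX22, and 99.6 and 98.0 FPKM in 2C. No CX45 or 8C library came within reach of the CX22 and 2C libraries, and both CX45 libraries stood above both 8C libraries. In 8C against 2C Cnot6l fell by 4.37 on the log2 scale (SE 0.49, limma adjusted p = 0.00512), a 24.9-fold difference of means. In CX45 it fell by 3.42 against CX22 (SE 0.40, limma adjusted p = 0.00662) and fell by 3.41 against 2C (SE 0.49, limma adjusted p = 0.0124). Cnot6l was called in 8C against 2C and in CX45 against CX22 under each of the 18 settings run.

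Cnot6 (chromosome 11, 49484999 to 49526224) had 15.1 and 10.6 FPKM in CX45, 4.65 and 5.58 FPKM in 8C, 18.6 and 25.6 FPKM in CX22, and 29.0 and 27.0 FPKM in 2C. The groups stood in the order 8C, CX45, CX22 and 2C, and no pair of groups overlapped. In 8C against 2C Cnot6 fell by 2.25 on the log2 scale (SE 0.41, limma adjusted p = 0.0162). The differences of CX45 from CX22, at -0.74 (SE 0.34, limma adjusted p = 0.154), and from 2C, at -1.09 (SE 0.41, limma adjusted p = 0.110), were not called.

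Of the nucleases of the Cnot7 kind, Cnot7 fell, while Cnot8 had higher means in 8C and CX45 that were not called. Cnot7 (chromosome 8, 41577892 to 41601201) had 78.7 and 97.5 FPKM in CX45, 78.0 and 86.9 FPKM in 8C, 334 and 526 FPKM in CX22, and 353 and 343 FPKM in 2C. The CX45 and 8C pairs overlapped each other, and both lay far below the other 4 libraries. In 8C against 2C Cnot7 fell by 2.07 on the log2 scale (SE 0.36, limma adjusted p = 0.0141), a 4.22-fold difference of means. In CX45 it fell by 2.24 against CX22 (SE 0.29, limma adjusted p = 0.00784) and fell by 1.98 against 2C (SE 0.36, limma adjusted p = 0.0203).

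Cnot8 (chromosome 11, 57906296 to 57932099) had 54.0 and 95.7 FPKM in CX45, 94.6 and 144 FPKM in 8C, 9.24 and 68.6 FPKM in CX22, and 30.4 and 30.9 FPKM in 2C. Both CX45 and both 8C libraries stood above the 2C pair, but the CX22 pair spread over a range that took in 2C and reached into CX45. At the gene level the differences were not called, with log2 fold changes of 1.90 in 8C against 2C (SE 1.20, limma adjusted p = 0.264) and 1.45 in CX45 against CX22 (SE 0.98, limma adjusted p = 0.308).

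Pan2 (chromosome 10, 127740391 to 127758414) had 3.57 and 1.21 FPKM in CX45, 0.962 and 1.62 FPKM in 8C, 12.3 and 25.7 FPKM in CX22, and 16.4 and 17.9 FPKM in 2C. Its 4 CX45 and 8C libraries were all below the other 4. The log2 fold change of Pan2, which fell in both comparisons, was -3.00 in 8C against 2C (SE 0.73, limma adjusted p = 0.0334) and -2.57 in CX45 against CX22 (SE 0.59, limma adjusted p = 0.0291). In CX45 against 2C it was at -2.51 (SE 0.73, limma adjusted p = 0.0600), not called. The call in CX45 against CX22 was lost without either 8C library, either CX45 library or CX22 replicate 2 and with the highest entry of each gene, and the call in 8C against 2C was lost with no filter on low values and with the highest entry of each gene.

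The CX45 against 2C count was the least settled of these. It was 1, Cnot6l, without either 8C library, and 0 without CX45 replicate 1. Without CX45 replicate 2 it was 2, Btg4 and Cnot6l. With the 8 libraries kept separate it was 6, adding Cnot1, Cnot6 and Pan2.

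**Figure D2:**
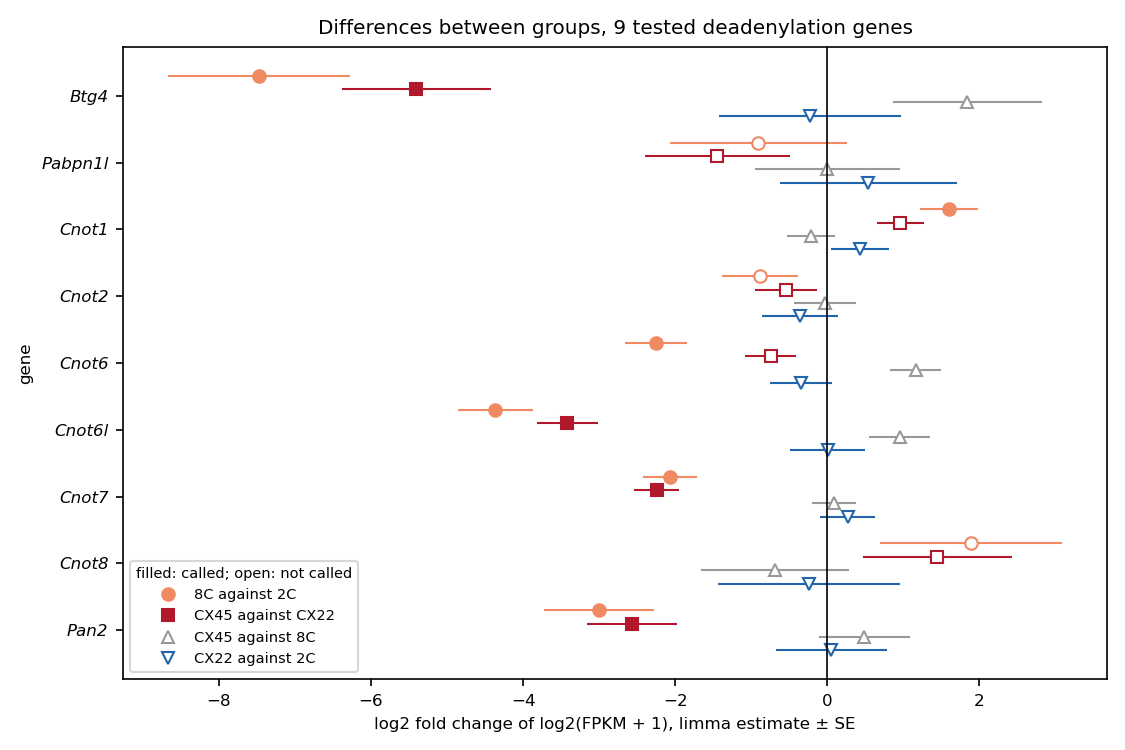
Limma log2 fold changes of log2(FPKM + 1) with SE (x axis) for the 9 tested genes in 4 comparisons, each marked by colour and symbol; filled symbols were called and open ones were not. Filled symbols are found in 8C against 2C, where 6 genes were called, and in CX45 against CX22, where 4 were; CX45 against 8C and CX22 against 2C have none.

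Within each pair of alternative nucleases, the balance of transcripts differed between the groups. The ratio of Cnot6l to Cnot6 stood at 0.480 and 0.912 in CX45, at 1.1013 and 0.507 in 8C, at 4.20 and 4.94 in CX22, and at 3.44 and 3.62 in 2C. Cnot6l thus outweighed Cnot6 in every CX22 and 2C library, and the 2 were near even or reversed in CX45 and 8C. The ratio of Cnot7 to Cnot8 stood at 1.46 and 1.02 in CX45, at 0.824 and 0.605 in 8C, at 36.1 and 7.66 in CX22, and at 11.6 and 11.1 in 2C. Cnot8 outweighed Cnot7 in the 8C libraries and in no other. The mean log2 ratio of Cnot7 to Cnot8 was 0.28 ± 0.36 in CX45, -0.50 ± 0.32 in 8C and 4.06 ± 1.58 in CX22 (SD, n = 2 each), and 3.51 in 2C, and no test was made of the ratios. The summed FPKM of Cnot7 and Cnot8 came to 133 and 193 in CX45, to 173 and 231 in 8C, to 343 and 594 in CX22, and to 384 and 374 in 2C. The sum of Cnot6 and Cnot6l was 22.4 and 20.2 FPKM in CX45, 9.76 and 8.40 FPKM in 8C, 96.6 and 152 FPKM in CX22, and 129 and 125 FPKM in 2C. As a ratio, the sum of Cnot6 and Cnot6l thus differed more between CX45 with 8C and CX22 with 2C than the sum of Cnot7 and Cnot8. In FPKM the sum of Cnot7 and Cnot8 differed more, and neither was tested.

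**Figure D3:**
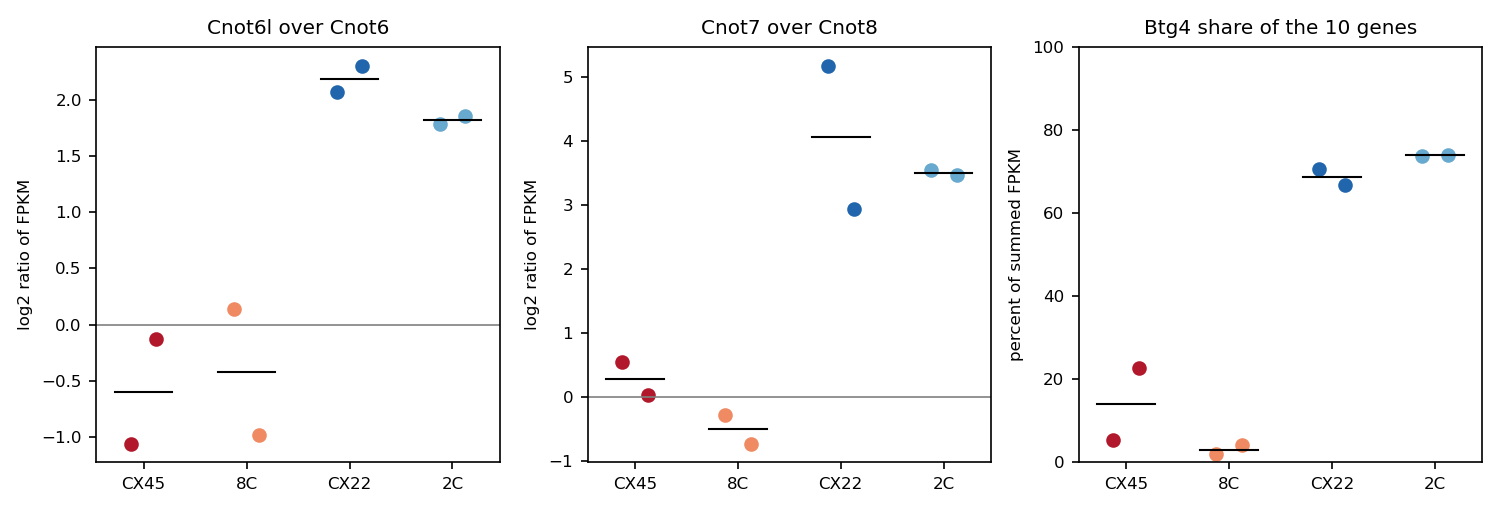
Log2 ratio of FPKM of Cnot6l over Cnot6 (left) and of Cnot7 over Cnot8 (middle), and the percent of the summed FPKM of the 10 genes that was Btg4 (right), in CX45, 8C, CX22 and 2C libraries; points are libraries, bars are means of the pair, and grey lines mark equal levels. CX22 and 2C libraries stand above CX45 and 8C libraries in all 3 panels, with Btg4 at 66.9% to 74.0% there and 1.93% to 22.8% in the others.

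The 10 genes had 42 RefSeq transcript entries in the table, of which 25 were above 0 in any library and 22 were tested in a fit over single entries. Cufflinks divides reads between overlapping entries by estimate, so the values of single entries are less certain than gene sums. Several called entries were listed at 0 in every library of 1 side of a comparison. They passed the filter only through libraries where they were high, so their p-values are no support for a difference. In some libraries 1 entry held all the reads of a gene and in others they were shared, as for Cnot8 in the first 8C library, where NM_001356477 held 54.4% and NM_026949 held 45.6%. In 8C against 2C, 6 of the 22 entries fell and 3 rose, where 30.3% of all entries were called. In CX45 against CX22, 4 fell and 3 rose, where 28.7% of all were called. In CX45 against 8C, 0 of the 22 were called, where 2.33% of all were. In CX22 against 2C, 1 was called, where 6.7% of all were: the Pan2 entry NM_001252326, which was listed at 0 in both CX22 libraries and at 9.77 and 17.9 FPKM in 2C, while other Pan2 entries held the CX22 reads.

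Cnot7 reads were assigned to entries with different starts. Entry NM_001271542, whose start lies 4093 bases upstream of that of NM_011135, was listed at 0 in all CX45 and 8C libraries, at 189 and 526 FPKM in CX22, and at 353 and 343 FPKM in 2C. Entry NM_011135 had 47.8 and 76.3 FPKM in CX45 and 62.3 and 86.9 FPKM in 8C; all CX22 and 2C libraries listed it at 0. The fall of NM_001271542 and the rise of NM_011135 were called in 8C against 2C (limma adjusted p = 0.00313 and 0.00234) and in CX45 against CX22 (limma adjusted p = 0.00434 and 0.00402). Each entry passed the filter only through the groups where it was high, so these p-values are no support for the differences. In CX22 replicate 1, other entries that start where NM_011135 does, NM_001361939 and NR_155265, held 74.1 and 70.8 FPKM.

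For Cnot8, whose gene sum was not called, a single entry was. NM_026949, which starts 259 bases upstream of NM_001356477 and whose upstream window is printed above, had 23.9 and 60.1 FPKM in CX45 and 43.2 and 125 FPKM in 8C; all CX22 and 2C libraries listed it at 0. It rose in 8C against 2C (limma adjusted p = 0.0124) and in CX45 against CX22 (limma adjusted p = 0.0127). Since NM_026949 passed the filter only through CX45 and 8C libraries, these p-values are no support for the rise. NM_001356477 had 30.2 and 35.6 FPKM in CX45, 51.5 and 18.9 FPKM in 8C, 9.24 and 68.6 FPKM in CX22, and 30.4 and 30.9 FPKM in 2C, with no call.

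Cnot2 also had an entry with a start of its own. NM_001359253, which begins 52587 bases inside the gene from the start of NM_001359248, had 23.6 and 8.73 FPKM in CX45, 0 and 0 in 8C, 25.0 and 39.4 FPKM in CX22, and 59.1 and 60.5 FPKM in 2C. It held all the Cnot2 reads of 2C and none of 8C, and fell in 8C against 2C (limma adjusted p = 0.00753). This entry too passed the filter only through groups where it was above 0, so the p-value is no support for the fall. The printed Cnot2 and Cnot8 windows were assigned to these entries because the distances between starts were the same on both builds.

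For Cnot6, whose 4 entries share both ends, NM_001363357 was listed at 0 in CX45 and 8C, at 18.6 and 25.6 FPKM in CX22 and at 22.0 and 20.3 FPKM in 2C. NM_212484, at 0 in CX22 and 2C, had 11.9 and 10.6 FPKM in CX45 and 2.33 and 2.03 FPKM in 8C. Both entries were called in 8C against 2C (limma adjusted p = 0.00588 and 0.0434) and in CX45 against CX22 (limma adjusted p = 0.00556 and 0.00618). Here too each entry passed the filter only through the groups where it was high, so the p-values are no support.

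**Figure D4:**
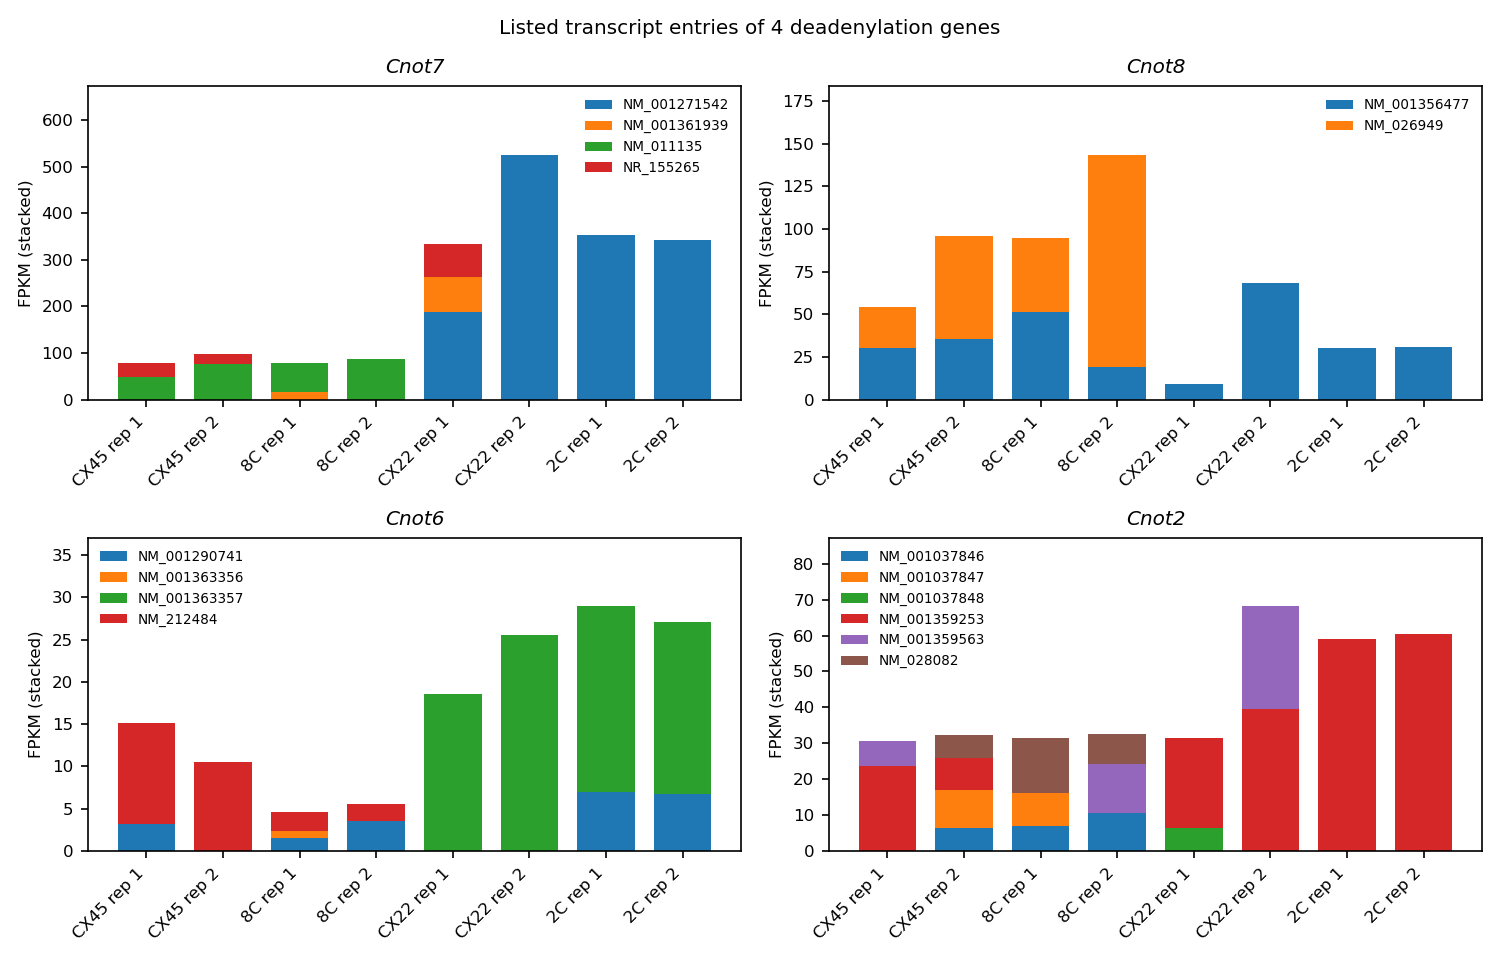
FPKM of the RefSeq transcript entries of Cnot7, Cnot8, Cnot6 and Cnot2 that were above 0 (stacked bars from 0), by library, with CX45 and 8C libraries at the left and CX22 and 2C libraries at the right. For Cnot7, NM_001271542 fills the 2C bars at 353 and 343 FPKM and is absent from the 8C bars, where NM_011135 has 62.3 and 86.9 FPKM.

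CX22 embryos were also set directly against 2C embryos. Of the 9 tested genes, 0 were called by limma, and 0 passed an unadjusted p under 0.05, where 3.85% of all genes were called. The largest log2 fold changes in size were 0.54 for Pabpn1l (SE 1.17) and 0.43 for Cnot1 (SE 0.38). The CX22 libraries differed from each other by more than the 2C libraries did, and 331 genes were above 10 FPKM in 1 CX22 library and at 0 in the other, against 7 such genes in 2C. Small differences from 2C could not be resolved here.

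In CX45 against 8C, 0 of the 9 were called by limma and 1, Cnot6, passed an unadjusted p under 0.05, where 0.659% of all genes were called, and 0 of all genes without any 1 CX45, 8C or CX22 library. Cnot6 was 2.51 times higher in CX45 by its means, a log2 fold change of 1.16 (SE 0.34, limma adjusted p = 0.173), and Cnot6l 2.12 times higher, at 0.95 (SE 0.40, limma adjusted p = 0.302). For both genes, each CX45 library stood above each 8C library. Of the 10 genes, 2 were separated upward, 1 downward and 7 overlapped. The share of all genes so separated was not counted, so the separation is no support for these differences. Cnot1 was lower in CX45 in both libraries, at -0.21 (SE 0.31, limma adjusted p = 0.791). The median log2 fold change over all genes was 0.31 in this comparison and moved to 0.00 under quantile normalization and under median-ratio scaling.

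Whether the CX45 minus 8C difference departed from the CX22 minus 2C difference was tested by the contrast of the 2. Of the 9 genes, 0 were called by limma and 1, Cnot6, passed an unadjusted p under 0.05, where 3.54% of all genes were called. For Cnot6 the contrast was 1.51 on the log2 scale (SE 0.53, limma adjusted p = 0.218), the CX45 libraries standing above 8C and the CX22 libraries below 2C. For Btg4 it was 2.07 (SE 1.55, limma adjusted p = 0.528).

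Other deadenylases and their cofactors moved in both directions. Of 16 such genes tested, 4 fell and 3 rose in 8C against 2C, so that 43.8% were called, against 37% of all genes, with a median log2 fold change of -0.65 against -0.03 over all genes. Angel2, of the same nuclease family as Cnot6, had 0.567 and 2.42 FPKM in 8C and 346 and 346 FPKM in 2C (limma adjusted p = 0.00222). Tob1, a BTG/Tob protein that binds the Cnot7 kind of nuclease, fell too, with a log2 fold change of -3.44. Btg1, of the Btg4 family, rose by 2.32, and Toe1, a nuclear deadenylase listed at 0 in 2C, had 13.9 and 9.58 FPKM in 8C. Toe1 would not have passed the filter without the CX45 and 8C libraries, where it was high, so its call is no support for the rise. The call of Btg1 was lost without 8C replicate 1 or any 1 CX45 or CX22 library and with no filter on low values, and that of Toe1 without any 1 8C or CX45 library and with a pseudocount of 0.1. In CX45 against CX22, 6 rose and 1, Angel2, fell, so that 43.8% were called, against 36.6% of all genes, with a median of 0.12 against 0.47 over all genes. Btg2, also of the Btg4 family, had 12.0 and 21.4 FPKM in CX45 and 0.862 and 0.188 FPKM in CX22. Btg3 and the CCR4-NOT subunit Cnot9 rose as well, by 3.14 and 1.90 on the log2 scale. The calls of both were lost without either 8C library or CX45 replicate 1, that of Btg3 also without CX22 replicate 1, and that of Cnot9 also without CX45 replicate 2. In CX45 against 2C, 2 rose and 1 fell, 18.8% called against 29.8% of all genes. In CX45 against 8C and in CX22 against 2C 0 were called, where 0.659% and 3.85% of all genes were.

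RNA-binding proteins were listed too, only some of which bring deadenylases to mRNA. Of 29 tested, 10 fell and 1 rose in 8C against 2C, with a median of -0.70. The share called, 37.9%, was near the 37% of all genes. Those that fell included Ythdf3, a reader of methylated adenosine, with a log2 fold change of -3.66, a call lost with the highest entry of each gene, the germ-cell protein Dazl with -5.34, and the microRNA cofactor Tnrc6b with -3.60, a call lost without 8C replicate 1. Nanos3, known in germ cells for binding CCR4-NOT, was the gene that rose, at 37.4 and 50.5 FPKM in 8C and 0 in both 2C libraries. It would not have passed the filter without the CX45 and 8C libraries, where it was high, so its call is no support for the rise. Against CX22, 5 fell in CX45, among them Ythdf3 and Igf2bp3, and 6 rose, 37.9% called against 36.6% of all genes, with a median of -0.44. In CX45 against 2C, 5 fell and 3 rose, 27.6% called against 29.8% of all genes.

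Poly(A) polymerases and poly(A)-binding factors had 6 of 22 tested genes lower and 3 higher in 8C against 2C, with a median of -0.74. The share called, 40.9%, was near that of all genes, 37%, whose median was -0.03. Paip1, a partner of the cytoplasmic poly(A)-binding protein, had 23.1 and 27.1 FPKM in 8C and 2889 and 2826 FPKM in 2C (limma adjusted p = 0.00201). Tent4a, a poly(A) polymerase, fell by 6.37 on the log2 scale, and Pabpc1, the cytoplasmic poly(A)-binding protein of somatic cells, rose by 3.84. In CX45 against CX22, 6 fell and 2 rose, with log2 fold changes of -4.41 for Paip1 and 3.28 for Pabpc1, and 36.4% called against 36.6% of all genes. Against 2C, 3 fell and 2 rose in CX45, 22.7% called against 29.8% of all genes. Pabpn1, which rose, was the 1 gene of the 22 called in CX45 against 8C, 4.55% against 0.659% of all genes. It stood at 456 and 499 FPKM in CX45 and 70.7 and 67.8 FPKM in 8C, a log2 fold change of 2.77 (limma adjusted p = 0.0475). That call was lost in 11 of the 17 alternatives. The uridylating enzymes gave 0 calls of 3 tested in 8C against 2C and 1 in CX45 against CX22, Tut7, which rose by 2.01 on the log2 scale, a call lost without any 1 8C or CX45 library, under median-ratio scaling and with a pseudocount of 0.1.

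Decapping and exonuclease genes, which act after the tail is gone, had 9 of 21 tested lower and 4 higher in 8C against 2C, 61.9% called against 37% of all genes, with a median of -0.48. The decapping enzyme Dcp2 fell by 4.09 on the log2 scale and Lsm14a fell by 4.37, and Lsm5, of the ring that binds shortened tails, rose by 5.31. Against CX22, 8 fell and 5 rose in CX45, 61.9% called against 36.6% of all genes, with Dcp2 at -3.32 and Lsm5 at 6.73. Pnrc1, a decapping cofactor, was the 1 gene of the 21 called in CX45 against 8C, 4.76% against 0.659% of all genes. It stood at 18.9 and 17.8 FPKM in CX45 and 0 and 0.0512 FPKM in 8C (limma adjusted p = 0.0462), a call lost in 10 of the 17 alternatives. Cap-binding and initiation genes had 4 of 11 higher and 2 lower in 8C against 2C, 54.5% called against 37% of all genes, with Eif4a1 higher by 3.50 on the log2 scale and Eif4e3 lower, at -5.22. The call of Eif4a1 was lost with the highest entry of each gene. In CX45 against CX22, 6 were higher and 1 lower, 63.6% called against 36.6% of all genes.

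Maternal oocyte transcripts, the kind of mRNA these factors act on, had 24 of 36 tested lower and 0 higher in 8C against 2C, 66.7% called against 37% of all genes, with a median log2 fold change of -3.60. Relative to CX22, 20 fell and 0 rose in CX45, 55.6% called against 36.6% of all genes, with a median of -2.32. In CX45 against 2C, 18 fell and 0 rose, 50% called against 29.8% of all genes. The median there was -2.74, against 0.33 over all genes. Oosp1, an oocyte-secreted protein, had 62.9 and 89.0 FPKM in CX45, 5.51 and 9.66 FPKM in 8C, 1267 and 1705 FPKM in CX22, and 1693 and 1700.2 FPKM in 2C. In CX22 against 2C, 0 of the 36 were called, where 3.85% of all genes were. In CX45 against 8C, 1 of the 36 was called, 2.78% against 0.659% of all genes. It was Omt2a, whose close copy Omt2b makes its reads uncertain. Omt2a rose, at 579 and 808 FPKM in CX45 and 50.7 and 45.6 FPKM in 8C (limma adjusted p = 0.0462). That call was lost in 10 of the 17 alternatives.

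The genes whose levels followed Btg4 most closely over the 7 samples, among tested genes with a mean of at least 10 FPKM, were Ccndbp1, Tcl1b1, Zbed3, Cd55 and Tgfb2, with Pearson correlations of 0.997 to 0.998 on the log2(FPKM + 1) scale. For Cnot7 they were Sinhcaf, Bag4, Ap3m1, Wasl and Lmo7, with correlations of 0.993 to 0.997. The samples fall into 2 sets, CX45 with 8C and CX22 with 2C, and share libraries between genes, so many genes reach such values and no test was made.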

How the data were processed

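Transcript levels of C57BL/6 mouse embryos were measured by Smart-seq in 8 libraries, 2 each of CX45, 8C, CX22 and 2C. Per the labels' protocols, KAPA HiFi polymerase amplified cDNA made from total RNA, and Nextera XT libraries were sequenced on a BGISEQ500. The submitters' processing notes name the mouse build mm9, HISAT2 and Cufflinks 2.2.1; their settings and the annotation release were not stated in the sources. The deposited table holds FPKM (fragment counts scaled to transcript length and to the size of the library) made by the authors, 1 value per RefSeq transcript entry and library. The protocol is not stated to mark strand, so overlapping genes on opposite strands cannot be told apart.

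Of 41876 entries, 41685 matched a gene symbol, and their FPKM were summed per gene to 24732 genes. The 191 unmatched entries carried 0.0650% to 0.253% of a library's FPKM. Depth was implied from the steps between low values, of which all 18 to 29 used per library were whole within 0.05 of a fragment. Since cDNA was amplified and no molecular identifiers were used, fragments are not independent molecules.

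The filter kept the 11832 genes that reached 1 FPKM in 2 or more libraries. Tests used log2(FPKM + 1). The 2C libraries were averaged because the median chi-square of their difference over 53 genes was 0.772 times that of chance, and 48.1 times in CX45, 31.4 times in 8C and 102 times in CX22. One limma 3.58.1 fit (R 4.3.3), with a trend on mean expression, took in the 4 groups as 7 samples with 3 residual degrees of freedom. Its estimate of spread comes from the other groups and was applied to the single 2C sample too. Tests were two-sided. The fit was run on simulated data that gave each gene the same spread in every group. That run cannot test whether the spread of the other groups applies to 2C. Single transcript entries were fitted in the same way, a choice made after the data were seen.

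The 10 genes, the other gene lists and the rules were chosen with earlier results of these data known. From each other list, up to 4 called genes a comparison with the smallest p were eligible to be named. Cdx2, Dppa2, Dppa4, Hba-a1, Pramel7, Omt2b, Tcstv1, Zfp352, Zscan4f, Zp3 and Zbed3 were named after their values were seen. Alternatives covered the pseudocount, the filter, separate 2C libraries, a replicate block, scaling, summing, the trend and leaving out each library.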

Additional observations from a re-analysis of the deposited data

Results flagged for a closer look

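For 2 genes of the decay lists and 1 maternal transcript, the difference of CX45 from 8C departed from the difference of CX22 from 2C in the test of that contrast. Btg2, of the Btg4 family, had 12.0 and 21.4 FPKM in CX45, 0.0726 and 0.448 FPKM in 8C, 0.862 and 0.188 FPKM in CX22, and 5.21 and 5.66 FPKM in 2C, and its contrast was 5.89 on the log2(FPKM + 1) scale (SE 0.78, limma adjusted p = 0.0341). Pnrc1, a decapping cofactor, had 18.9 and 17.8 FPKM in CX45, 0 and 0.0512 FPKM in 8C, 248 and 178 FPKM in CX22, and 226 and 220.2 FPKM in 2C, and its contrast was 4.32 (SE 0.43, limma adjusted p = 0.0189). Omt2a, a maternal transcript with a close copy, had a contrast of 3.59 (SE 0.42, limma adjusted p = 0.0261). In this contrast 1 of 16 other deadenylation genes was called (6.25%), 1 of 21 decapping and exonuclease genes (4.76%) and 1 of 36 maternal transcripts (2.78%). Of the RNA-binding, poly(A), uridylating and cap-binding lists, 0 of 29, 22, 3 and 11 genes were called. Over all genes tested the share was 3.54%, so the 3 genes do not set these lists apart. The calls were lost in 7 of 17 alternatives for Btg2, in 4 for Pnrc1 and in 5 for Omt2a, and quantile normalization left 0 genes called.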

How the results depend on the processing

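Of 794 values of the tested genes under 17 alternatives, 715 kept direction and call status, 34 lost the call, 20 gained it and 25 changed sign, and no called value changed sign. Of the contrast of differences, Cnot6 and Btg4 are included. The 715 hold 138 values of CX22 against 2C, 142 of CX45 against 8C and 33 of the contrast. None of these genes was called there in the main fit, so those values only stayed uncalled. The count of called genes ran from 1 to 6 in 8C against 2C, 0 to 4 in CX45 against 2C, and 0 to 1 both in CX22 against 2C and in the contrast of differences when 1 library was left out; the 1 was Pabpn1l without CX22 replicate 1. In CX45 against 2C it was 5 with a filter at 5 FPKM and 6 with 8 separate libraries, with or without the replicate block. Replicate numbers were not used as pairs in the main fit. Deviations of same-numbered libraries correlated by -0.00073 to 0.108, which cannot show whether those libraries shared a batch. With 1 library left out, log2 fold changes in CX22 against 2C ran from -0.51 to 0.052 for Btg4, -0.91 to 1.99 for Pabpn1l, -0.91 to 0.19 for Cnot2, -0.34 to 0.35 for Cnot6l, -0.061 to 0.59 for Cnot7, -1.63 to 1.14 for Cnot8 and -0.45 to 0.56 for Pan2. In CX45 against 8C they ran from -0.065 to 0.017 for Cnot2, -0.065 to 0.24 for Cnot7 and -0.034 to 1.01 for Pan2, and for Cnot2 in CX45 against CX22 from -1.09 to 0.0011. With the highest entry of each gene, CX22 against 2C gave -1.20 for Cnot1, 0.041 for Cnot6 and -0.14 for Cnot7, CX45 against 8C gave 3.95 for Cnot2, 0.064 for Cnot8 and -0.37 for Pan2, and the contrast for Cnot6 was -0.041. A pseudocount of 0.1 gave -0.27 for Pabpn1l in CX22 against 2C. In CX45 against 8C, quantile normalization gave -0.054 for Cnot7 and -0.067 for Pan2, and median-ratio scaling -0.50 for Cnot7. The cause of these changes was not tested. Over all genes, 4382 were called in 8C against 2C and 6679 with 8 separate libraries (6614 with the replicate block), and 78 in CX45 against 8C, 1037 with 8 separate libraries (707 with the block) and 0 under either scaling or without any 1 CX45, 8C or CX22 library. In CX22 against 2C the count was 456, 1606 with 8 separate libraries (1335 with the block), 241 under quantile normalization, 126 with a filter at 5 FPKM, 58 without a trend and 199 to 1103 with 1 library left out. In CX45 against 2C it was 3530, and 6085 with 8 separate libraries (6019 with the block) and 1491 to 2070 without any 1 8C or CX45 library. In CX45 against CX22 it was 4332, and 2442 to 2543 without any 1 of these. In the contrast it was 419, 1770 with 8 separate libraries (1327 with the block), 106 with the 5 FPKM filter 1095 without CX22 replicate 2, 636 without CX22 replicate 1 and 0 under quantile normalization, without a trend or without either 8C library; in CX45 against 8C, 183 with a pseudocount of 0.1, 0 with no filter and 2 without a trend. Of the genes called in CX45 against CX22, 63.1% were higher, and 49.2% under quantile normalization. Depth limits the low transcripts Pabpn1l, at 0 in 5 libraries, and Cnot3, at 0 in 7. Ratios between paralogs could not be recomputed from single entries, since some stood at 0.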
